A study of Mus musculus with 4 samples.

Results

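Cholesterol synthesis and its control by SREBP2 were examined in livers of ethanol-fed mice with and without hepatocyte Brg1. The gene list held 29 members, namely the enzymes of the mevalonate, isoprenoid and sterol steps, the proteins that sense sterols and release SREBP2, and genes of sterol transport and storage. Members were matched by gene symbol, and all 29 were found among the 22103 entries of the expression table. Whole-liver RNA was sequenced from 4 mice of the NIAAA model, in which a Lieber–DeCarli ethanol liquid diet is followed by an ethanol gavage, and the labels give 15 days of alcohol for every mouse. Brg1, encoded by *Smarca4*, is an ATPase of a chromatin remodeling complex. The Brg1 LKO mice (2 livers, labelled KO) carried floxed *Smarca4* alleles and a Cre transgene driven by the albumin promoter, which deletes in hepatocytes and leaves the other liver cells with the gene. The WT mice (2 livers) were littermates without the deletion. The study's methods describe male mice of about 8 weeks. No liver without ethanol was among the samples, so every value below belongs to the ethanol-fed state.

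Cholesterol is made from acetyl-CoA through mevalonate, isoprenoid phosphates, squalene and lanosterol, and hepatocytes are a main site of this synthesis. When sterols in the endoplasmic reticulum are low, Scap carries SREBP2 to the Golgi, where the site 1 and site 2 proteases free its transcription factor domain, which raises transcription of most synthesis enzymes. Insig1 and Insig2 hold Scap back when sterols are plentiful. *Insig1* is itself a target of SREBPs, whereas *Insig2* has a liver transcript that insulin lowers.

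Levels are given in FPKM, the fragments of a transcript scaled to its length and to the size of the library. As a check of the labels, *Smarca4* was listed at 1.78 and 1.95 FPKM for WT and at 0.608 and 0.579 FPKM for Brg1 LKO, a log2 fold change of −1.50 ± 0.34 (SE, n = 2 and 2) with an unadjusted p under 0.05 and an adjusted p = 1.00 (limma, Benjamini-Hochberg). The library depth estimated from the table was 72599106 to 80935546 reads. Hepatocyte markers were abundant in every liver, with all 6 listed markers between 48.9 and 12486 FPKM. Before any result, 1 property of the libraries has to be given. The median gene was 0.30 higher on the log2 scale in Brg1 LKO replicate 2 than in replicate 1 and 0.27 higher in WT replicate 2 than in replicate 1, so differences between livers of 1 genotype are set beside these shifts below, also after median-ratio rescaling, which divides each library by its typical ratio to the gene-wise mean.

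No member differed between genotypes in limma at the threshold the study used, an unadjusted p under 0.05 with a change over 2-fold. The study applied these cutoffs to another test, DESeq on read counts, which was not run here because FPKM are not counts. Of the 29 members, 28 passed the filter of a mean of 0.1 FPKM. *Idi2*, an isomerase best known from muscle, did not pass. It was listed at 0 in 3 livers and at 0.00568 FPKM, about 1 read, in Brg1 LKO replicate 1. Among the 12346 genes tested, 0.98% were past the threshold (0.437% higher and 0.543% lower in Brg1 LKO livers) and 2% had an unadjusted p under 0.05. Among the 28 members tested, 0 were past the threshold and 0 had an unadjusted p under 0.05, and each had an adjusted p = 1.00 (limma, Benjamini-Hochberg). The log2 fold change, the difference of the mean log2(FPKM + 0.1), was above 0 for 21 members and below 0 for 7, with a median of 0.13, while it was above 0 for 46.1% of all genes and their median was −0.02. Counts of genes higher or lower in Brg1 LKO livers below refer to the sign of this log2 fold change, which can differ from that of the mean FPKM where the difference is small. The members spanned −0.26 (*Sc5d*) to 0.65 (*Hsd17b7*). In whole liver, fewer cells of a type and less RNA per cell cannot be told apart.

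The precision of this comparison was low. Standard errors of the log2 fold changes ran from 0.33 to 0.55, and the 95% intervals stayed inside a 2-fold change in either direction for 15 members and reached it for the other 13. An exact permutation test of a single gene with 2 livers in each group cannot give a two-sided p under 0.333. The labels give no pairing of mice beyond the replicate numbers. In limma (eBayes with trend), the variance of each gene is drawn toward that of genes of similar level. The p-values therefore do not rest on the spread of a gene's own values alone, and they cover only these livers.

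**Figure D1:**
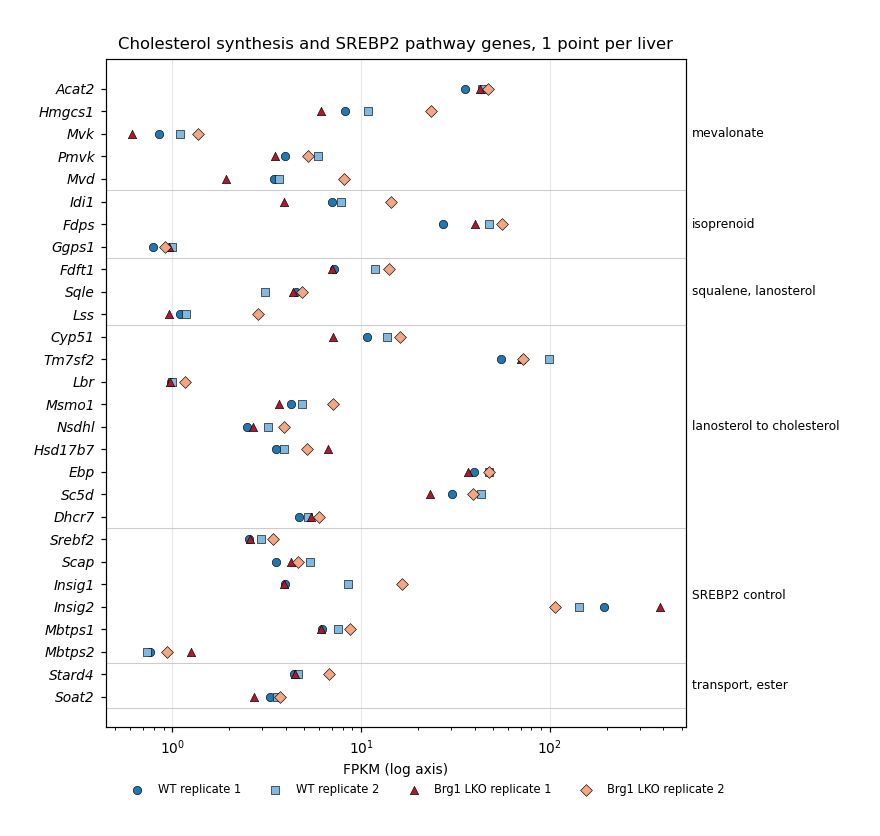
FPKM of the 28 tested members on a log axis, 1 point for each of the 4 livers, with members ordered by role (blue, WT; red and orange, Brg1 LKO). The orange diamonds of Brg1 LKO replicate 2 lie to the right and the red triangles of replicate 1 to the left for *Hmgcs1*, *Mvd*, *Idi1* and *Lss*, and *Insig2* shows the opposite order from 384 FPKM in replicate 1 to 107 FPKM in replicate 2.

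**Figure D2:**
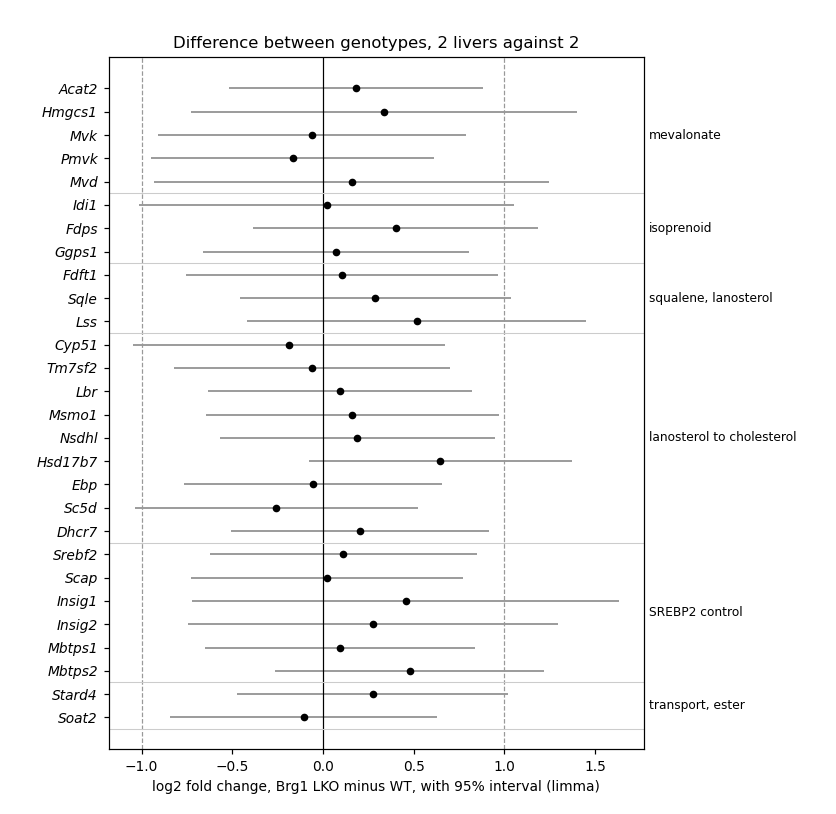
Log2 fold change of each tested member, Brg1 LKO minus WT on the log2(FPKM + 0.1) scale, with its 95% interval from limma, and dashed lines at a 2-fold change. All 28 intervals include 0, and 13 reach or cross a dashed line.

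Levels of the members differed widely in WT livers. *Insig2* was the most abundant at 169 ± 36.2 FPKM (SD, n = 2), followed by *Tm7sf2* at 77.4 ± 31.0 FPKM. *Ebp*, *Acat2*, *Fdps* and *Sc5d* came next with means of 43.8, 39.7, 37.3 and 36.7 FPKM, and the 2 values of each overlapped those of its neighbours in this order. Averaged over all 4 livers, 6 members were above 20 FPKM, 19 lay between 1 and 20 FPKM and 3 below 1 FPKM. These are per-length levels, and ranks of members with overlapping values are not separable with 2 livers. Summed over the 21 synthesis enzymes, the level was 252 and 360 FPKM in WT livers and 269 and 376 FPKM in Brg1 LKO livers. The sums of the genotypes therefore overlapped, and replicate 2 was the higher one in both.

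In 3 members both Brg1 LKO livers lay above both WT livers (*Hsd17b7*, *Dhcr7* and *Mbtps2*), and in 0 members below. Of all genes tested, 10.7% had Brg1 LKO livers wholly above WT livers and 10% wholly below, so the 3 of 28 members are near the background. *Hsd17b7*, the 3-ketosteroid reductase that acts while lanosterol loses its methyl groups, had the largest log2 fold change of the list. It stood at 3.56 and 3.89 FPKM in WT livers and at 6.68 and 5.18 FPKM in Brg1 LKO livers (3.73 ± 0.234 against 5.93 ± 1.06 FPKM, SD, n = 2 each), a log2 fold change of 0.65 with a 95% interval of −0.08 to 1.37. It ran from 0.47 to 0.83 as each liver was left out in turn. *Dhcr7*, the reductase of the last step from 7-dehydrocholesterol to cholesterol, stood at 4.68 and 5.23 FPKM in WT livers and at 5.45 and 5.99 FPKM in Brg1 LKO livers. The gap between its highest WT and lowest Brg1 LKO value was smaller than the gap within either genotype (log2 fold change 0.21, 95% interval −0.51 to 0.92). *Mbtps2*, the site 2 protease that makes the final cut in SREBPs, stood at 0.760 and 0.738 FPKM in WT livers and at 1.25 and 0.933 FPKM in Brg1 LKO livers (log2 fold change 0.48, 95% interval −0.26 to 1.22). The *Yy2* gene lies on the same strand within *Mbtps2*.

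The mevalonate steps comprised 5 members, of which 3 had a log2 fold change above 0, with a median of 0.16. *Acat2* makes acetoacetyl-CoA and stood at 35.5 and 43.8 FPKM in WT livers and at 42.6 and 47.1 FPKM in Brg1 LKO livers. Its 4 values were close, and 40.7% of its 75-base stretches also occur in *Acat3*, so reads of the pair may be shared. *Hmgcs1*, the HMG-CoA synthase of the cytosol, stood at 8.25 and 10.9 FPKM in WT livers and at 6.14 and 23.4 FPKM in Brg1 LKO livers. The Brg1 LKO livers lay on either side of both WT livers and differed 3.81-fold, so the log2 fold change of 0.34 had a wide 95% interval, −0.73 to 1.40. *Mvk*, mevalonate kinase, showed the same order at a low level, with 0.851 and 1.10 FPKM in WT livers and 0.613 and 1.37 FPKM in Brg1 LKO livers, the last pair resting on about 114 and 236 reads. *Pmvk*, which adds the second phosphate, stood at 3.97 and 5.93 FPKM in WT livers and at 3.52 and 5.27 FPKM in Brg1 LKO livers. Replicate 2 was the higher liver in both genotypes for *Pmvk*. *Mvd*, the decarboxylase that yields isopentenyl diphosphate, stood at 3.47 and 3.67 FPKM in WT livers and at 1.92 and 8.15 FPKM in Brg1 LKO livers. The WT livers were nearly equal while the Brg1 LKO livers differed 4.23-fold, the widest ratio of any member, and the log2 fold change was 0.16 (95% interval −0.93 to 1.25).

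Of the isoprenoid members, *Idi1* interconverts the 5-carbon building blocks and stood at 7.04 and 7.83 FPKM in WT livers and at 3.92 and 14.4 FPKM in Brg1 LKO livers. Its mean log2 fold change was 0.02, while its Brg1 LKO livers differed 3.68-fold around the WT values. Other transcripts (*Gm13502*, *Gm35570* and *Gm7654*) hold 20.7% of its 75-base stretches, so its level is uncertain too. *Fdps*, farnesyl diphosphate synthase, stood at 27.1 and 47.4 FPKM in WT livers and at 40.3 and 55.6 FPKM in Brg1 LKO livers. Replicate 2 was again higher in both genotypes, and 75.1% of the 75-base stretches of *Fdps* occur in other transcripts (*Gm43738*, *Gm3571* and *Gm5873*), so its level is uncertain. *Ggps1* makes geranylgeranyl diphosphate for protein prenylation and held a narrow range, with 0.788 and 0.999 FPKM in WT livers and 0.957 and 0.919 FPKM in Brg1 LKO livers.

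All 3 members of the squalene and lanosterol steps had a log2 fold change above 0, with a median of 0.29 and no p under 0.05. *Fdft1*, squalene synthase, stood at 7.23 and 11.8 FPKM in WT livers and at 7.03 and 14.1 FPKM in Brg1 LKO livers. *Sqle*, squalene epoxidase, stood at 4.55 and 3.09 FPKM in WT livers and at 4.36 and 4.87 FPKM in Brg1 LKO livers. It was 1 of 3 members that were higher in WT replicate 1 than in WT replicate 2. *Lss*, which closes the sterol rings to give lanosterol, stood at 1.09 and 1.18 FPKM in WT livers and at 0.966 and 2.83 FPKM in Brg1 LKO livers. Its log2 fold change of 0.52 had a 95% interval of −0.42 to 1.45, and of the Brg1 LKO livers replicate 2 lay above both WT livers and replicate 1 below both.

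Between lanosterol and cholesterol, 5 of 9 members had a log2 fold change above 0 and the median was 0.09. *Cyp51*, the lanosterol demethylase, stood at 10.8 and 13.7 FPKM in WT livers and at 7.08 and 16.0 FPKM in Brg1 LKO livers, with WT livers between the Brg1 LKO livers. The sterol reductase *Tm7sf2* stood at 55.5 and 99.3 FPKM in WT livers and at 70.1 and 72.0 FPKM in Brg1 LKO livers, so here the WT livers were the ones that differed. *Lbr*, the other reductase of this step and a protein of the nuclear envelope, was near 1 FPKM in all 4 livers (0.985 and 1.00 FPKM in WT, 0.973 and 1.17 FPKM in Brg1 LKO). This left the pair apart in level by far more than either varied between livers, although *Tm7sf2* overlaps *Vps51* on the same strand. *Msmo1* and *Nsdhl* remove the methyl groups at carbon 4 together with *Hsd17b7*. *Msmo1*, listed with a transcript of 2 exons, stood at 4.28 and 4.87 FPKM in WT livers and at 3.67 and 7.11 FPKM in Brg1 LKO livers. *Nsdhl* stood at 2.49 and 3.22 FPKM in WT livers and at 2.67 and 3.93 FPKM in Brg1 LKO livers. Both were highest in Brg1 LKO replicate 2, unlike *Hsd17b7*, which was highest in replicate 1. *Ebp*, the sterol isomerase, stood at 39.8 and 47.8 FPKM in WT livers and at 36.8 and 47.8 FPKM in Brg1 LKO livers. *Sc5d*, the sterol desaturase, stood at 30.3 and 43.0 FPKM in WT livers and at 23.3 and 39.0 FPKM in Brg1 LKO livers. It had the lowest log2 fold change of the list, −0.26 (95% interval −1.04 to 0.52), and its groups overlapped.

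All 6 members that control SREBP2 had a log2 fold change above 0, with a median of 0.19 and no p under 0.05. *Srebf2*, which encodes SREBP2, stood at 2.54 and 2.97 FPKM in WT livers and at 2.58 and 3.44 FPKM in Brg1 LKO livers (log2 fold change 0.11, 95% interval −0.62 to 0.85). *Scap* stood at 3.54 and 5.37 FPKM in WT livers and at 4.24 and 4.63 FPKM in Brg1 LKO livers (log2 fold change 0.02, 95% interval −0.73 to 0.77, with mean FPKM of 4.46 and 4.43). For both genes the values of the genotypes overlapped. *Mbtps1*, the site 1 protease, stood at 6.23 and 7.59 FPKM in WT livers and at 6.11 and 8.80 FPKM in Brg1 LKO livers.

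The *Insig* genes differed between the Brg1 LKO livers in opposite directions. *Insig1* stood at 3.97 and 8.57 FPKM in WT livers and at 3.91 and 16.4 FPKM in Brg1 LKO livers. It was the only member over 2-fold apart between the WT livers (2.16-fold) and was 4.19-fold apart between the Brg1 LKO livers, so its log2 fold change of 0.45 had a 95% interval of −0.72 to 1.63. *Insig2* ran the other way, with 195 and 144 FPKM in WT livers and 384 and 107 FPKM in Brg1 LKO livers. Replicate 1 was thus the highest and replicate 2 the lowest of the 4 livers, the means of 169 ± 36.2 and 245 ± 196 FPKM (SD, n = 2 each) overlapped, and the log2 fold change was 0.28 (95% interval −0.75 to 1.30). The *Insig2* values rest on about 42525 and 30956 reads in WT livers and 80869 and 20929 reads in Brg1 LKO livers, so counting error was small beside the difference between mice. The ratio of *Insig2* to *Insig1*, both in FPKM, was 49.1 and 16.8 in WT livers and 98.0 and 6.52 in Brg1 LKO livers. *Insig2* alone made up 41.3% and 26.7% of the summed FPKM of all members in WT livers and 56.6% and 20.3% in Brg1 LKO livers. Its share was highest in Brg1 LKO replicate 1 and lowest in replicate 2, on either side of the WT livers.

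Of the members in transport and storage, *Stard4*, a carrier of sterols between membranes, stood at 4.43 and 4.66 FPKM in WT livers and at 4.47 and 6.80 FPKM in Brg1 LKO livers. *Soat2*, which esterifies cholesterol for lipoproteins, stood at 3.30 and 3.60 FPKM in WT livers and at 2.73 and 3.73 FPKM in Brg1 LKO livers. In both, WT values were close and Brg1 LKO replicate 2 was the highest liver.

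Set side by side, the members varied more between the 2 Brg1 LKO livers than between genotypes. The scales are unlike, because a genotype difference is taken between means of 2 livers, and averaging alone makes it smaller. The median size of the log2 difference was 0.53 between the Brg1 LKO livers, 0.31 between the WT livers and 0.17 between genotypes, against 0.40, 0.31 and 0.17 over all genes tested. The gap between the Brg1 LKO livers was wider than that between the WT livers for 21 members (75%) and for 59.2% of all genes. Brg1 LKO replicate 2 was the highest of the 4 livers for 20 members (71.4%) and 41% of all genes, and replicate 1 the lowest for 15 members (53.6%) and 46.6% of all genes. Brg1 LKO replicate 2 was over 2-fold above replicate 1 in 7 members (25%), *Hmgcs1*, *Mvk*, *Mvd*, *Idi1*, *Lss*, *Cyp51* and *Insig1*, while 9.61% of all genes were. In all 7, both WT livers lay between the Brg1 LKO livers, an order that 13 members and 24% of all genes had. Genes picked for a wide gap between the Brg1 LKO livers are more likely to have this order, so it adds nothing to the gap itself. For *Insig1* the order rests on 3.91 FPKM in Brg1 LKO replicate 1 against 3.97 FPKM in WT replicate 1. The summed level of the 7 was 35.5 and 47.0 FPKM in WT livers and 24.6 and 82.6 FPKM in Brg1 LKO livers. *Fdft1* and *Msmo1* lay just short of 2-fold with log2 differences of 0.99 and 0.93, and *Mvk* lay just beyond at 1.04. The opposite direction held for 1 member, *Insig2*, at −1.84 on the log2 scale, and for 2.35% of all genes. Among the WT livers, 1 member (*Insig1*) and 2.79% of all genes were over 2-fold higher in replicate 2. These are differences between single livers and carry no test.

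**Figure D3:**
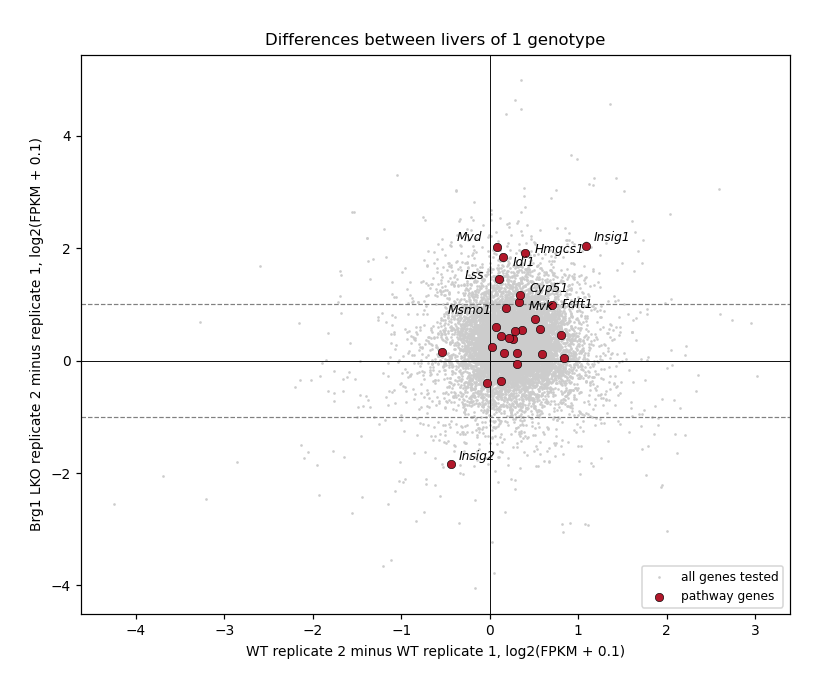
Log2 difference in FPKM + 0.1 between the livers of 1 genotype, WT replicate 2 minus 1 on the horizontal axis and Brg1 LKO replicate 2 minus 1 on the vertical axis, for all 12346 genes tested (grey) and the 28 members (red), with dashed lines at 2-fold. Above the upper line lie 7 members and below the lower line 1 member, *Insig2*.

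Part of this gap was shared with the whole library. After median-ratio rescaling the median difference of the members between the Brg1 LKO livers was 0.22 in place of 0.49 on the log2 scale, and that of all genes 0.05 in place of 0.30. Still over 2-fold were *Hmgcs1*, *Mvd*, *Idi1*, *Lss* and *Insig1*, with rescaled log2 differences of 1.65, 1.77, 1.59, 1.21 and 1.77, or 17.9% of the members against 5.64% of all genes. *Mvk* at 0.80 and *Cyp51* at 0.90 no longer were. *Insig2* reached −2.11 after rescaling, when 3.96% of all genes were over 2-fold in that direction.

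The comparison of genotypes turned on which Brg1 LKO liver was used. Without replicate 1, 4 members were past the threshold, *Hmgcs1*, *Mvd*, *Lss* and *Insig1*, with log2 fold changes of 1.29, 1.17, 1.25 and 1.48, and 4.49% of all genes were past it too. All 4 were highest in replicate 2, the Brg1 LKO liver kept here, so these values add nothing beyond that order. Without replicate 2, *Insig2* alone was past the threshold at 1.20, beside 3.66% of all genes, and the number of members with a log2 fold change above 0 was 8 in place of 21. The share of all genes above 0 was 31.2% without replicate 2, in place of 46.1%, so the fall was shared with the whole library. In the comparisons without replicate 1 or replicate 2, the lone Brg1 LKO liver was assumed to vary as the WT livers did. Leaving out a WT liver gave 0 members past the threshold in either case.

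Markers of other cells also differed between the Brg1 LKO livers. Of 8 macrophage markers listed, 7 were found, and *Adgre1* was not among the entries. The summed level of 7 macrophage markers, all of them above 0 in every liver, was 37.8 and 38.3 FPKM in WT livers and 48.9 and 99.5 FPKM in Brg1 LKO livers, and 7 of 7 had a log2 fold change above 0 (median 0.84). The summed level of 6 hepatocyte markers was 19508 and 15106 FPKM in WT livers and 18284 and 19862 FPKM in Brg1 LKO livers, and 6 of 6 had a log2 fold change above 0 (median 0.29). Sums ranged from 22.7 to 28.0 FPKM for 6 sinusoidal endothelial markers, of which 0 of 6 had a log2 fold change above 0 (median −0.25), from 18.2 to 21.9 FPKM for 6 stellate markers and from 0.713 to 1.52 FPKM for 4 cholangiocyte markers. The 4 neutrophil markers summed to 11.2 and 4.08 FPKM in WT livers and to 16.0 and 7.63 FPKM in Brg1 LKO livers, with *Ly6g* listed at 0 in 1 liver. The macrophage, hepatocyte and stellate sums were each highest in Brg1 LKO replicate 2, where *Insig2* was lowest. For the hepatocyte sum, WT replicate 1 was close behind. The stellate sum was 21.9 FPKM there and 21.6 FPKM in WT replicate 2. Of the 20 synthesis enzymes tested, 15 were highest in Brg1 LKO replicate 2, as were 41% of all genes. Whether macrophages or other cells had a part in the levels of the members was not tested.

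**Figure D4:**
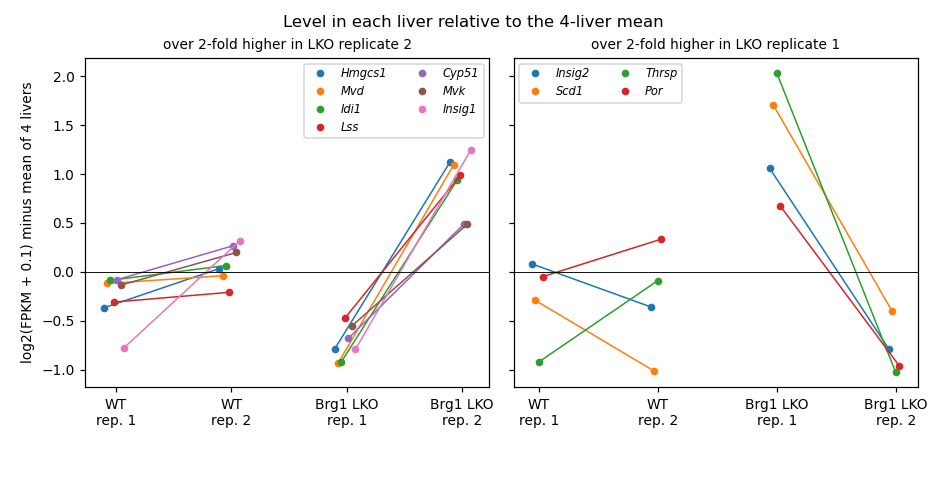
Level of each gene in each liver as log2(FPKM + 0.1) minus its mean over the 4 livers, with lines joining livers of 1 genotype, for the 7 members over 2-fold higher in Brg1 LKO replicate 2 (left) and for *Insig2* with the non-members *Scd1*, *Thrsp* and *Por* (right). The genes on the left were above their mean in Brg1 LKO replicate 2 and below it in replicate 1, and those on the right had the opposite order. Genes were placed in the panels by these differences.

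Promoter sequence was examined as a description only, since the members include known SREBP2 targets. RefSeq windows on GRCm38.p6, from 250 bases before to 50 after a transcript start, were matched to 24 members, and the window nearest the start of the listed transcript was used. No window was used for *Fdps*, *Fdft1*, *Sqle*, *Stard4* and *Soat2*. Short letter patterns were searched on both strands for exact matches, so variant forms of an element were not counted. The sterol element was written TCACNCCAC, with TCACCCCAC as its C form and so a part of it, the CCAAT box CCAAT and the GC box GGGCGG, and an element like an E-box, TCACNTGA, was added. The sterol element was found in 1 of 24 members, *Hmgcs1*, and in 1.24% of all 32851 windows, and its C form in the same member and in 0.551% of windows. CCAAT was found in 16 of 24 members (66.7%) against 37.4% of all windows, and GGGCGG in 20 of 24 (83.3%) against 35.7%. These sets are unlike. Each member had 1 window, while all windows include several of some genes and were not filtered by level in liver. Whether the members differ from other genes expressed in liver was not tested. TCACNTGA was found in 0 of 24 members and in 4.18% of windows. The 7 members with the wide gap all held a CCAAT and a GGGCGG match, but so did 8 members without that gap, among them *Hsd17b7*, which was higher in replicate 1. The window of *Insig2* held GGGCGG without CCAAT. The genes themselves lie at chr13:119690446-119708082 (*Hmgcs1*), chr8:122433601-122443422 (*Mvd*), chr10:76531612-76557138 (*Lss*), chr5:28071363-28078662 (*Insig1*) and chr1:121304353-121328024 (*Insig2*) on GRCm38 in GENCODE M21. *Hmgcs1*, *Mvd*, *Idi1*, *Lss* and *Cyp51* overlap a gene on the opposite strand, and whether strand was used in the quantification is not given in the sources used here. Letters that are absent from these windows may lie elsewhere, and a match is not a bound site.

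The upstream sequences of 5 members are shown, 4 of the members that were still over 2-fold higher in Brg1 LKO replicate 2 after rescaling and *Insig2*, which went the other way. Each run is 200 bases, 5′ to 3′ on the strand of the gene, and ends before whichever start comes first, that of the RefSeq transcript or that of the listed transcript. The run of *Insig1* therefore leaves out the 49 bases before its RefSeq start, whereas that of *Hmgcs1* ends at the RefSeq start, 95 bases from the listed start. Capitals mark matches to the patterns above on either strand (ATTGG is CCAAT and CCGCCC is GGGCGG read on the other strand). *Hmgcs1* is chr13:119690151-119690350 (+), *Mvd* chr8:122443423-122443622 (−), *Lss* chr10:76531405-76531604 (+), *Insig1* chr5:28071163-28071362 (+) and *Insig2* chr1:121328025-121328224 (−), all on GRCm38.p6 from RefSeq.
Hmgcs1: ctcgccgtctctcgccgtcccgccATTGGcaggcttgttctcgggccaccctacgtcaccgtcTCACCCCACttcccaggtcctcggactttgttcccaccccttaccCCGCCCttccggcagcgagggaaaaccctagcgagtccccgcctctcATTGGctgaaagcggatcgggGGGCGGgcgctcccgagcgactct
Mvd: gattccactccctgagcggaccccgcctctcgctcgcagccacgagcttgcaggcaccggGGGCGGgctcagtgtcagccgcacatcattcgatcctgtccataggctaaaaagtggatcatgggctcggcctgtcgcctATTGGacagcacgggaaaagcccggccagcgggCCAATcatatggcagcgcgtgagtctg
Lss: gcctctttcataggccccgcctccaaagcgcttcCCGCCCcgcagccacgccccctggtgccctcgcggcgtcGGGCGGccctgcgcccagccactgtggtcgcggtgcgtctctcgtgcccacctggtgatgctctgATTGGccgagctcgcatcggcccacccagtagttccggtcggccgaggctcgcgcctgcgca
Insig1: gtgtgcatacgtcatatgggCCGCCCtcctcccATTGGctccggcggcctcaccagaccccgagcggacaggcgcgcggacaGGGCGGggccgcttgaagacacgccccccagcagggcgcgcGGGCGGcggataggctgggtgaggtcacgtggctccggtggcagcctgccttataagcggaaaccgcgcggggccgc
Insig2: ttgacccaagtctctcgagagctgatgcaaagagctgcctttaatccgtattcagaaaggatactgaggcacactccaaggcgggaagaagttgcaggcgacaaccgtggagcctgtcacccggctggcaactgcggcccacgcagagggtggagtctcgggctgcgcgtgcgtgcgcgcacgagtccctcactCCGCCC
*Hmgcs1* carries the single match to the sterol element, TCACCCCAC, between a CCAAT box and a GC box. The stretches of *Mvd*, *Lss* and *Insig1* show at least 1 CCAAT and 1 GC box each, and that of *Insig2* shows 1 GC box at its end.

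Genes around the pathway were grouped in 5 further lists. They cover the isoprenoid branches and redox partners (ubiquinone and dolichol synthesis, cytochrome b5), the partners of sterol sensing, sterol efflux with targets of the sterol receptor LXR, fatty acid synthesis, and bile acid synthesis. Of the isoprenoid and redox genes, 11 of 19 had a log2 fold change above 0 (median 0.01), and 0 were past the threshold or had a p under 0.05. The largest changes without overlap were those of *Nus1*, a subunit for dolichol synthesis, at 0.34, *Coq2*, of ubiquinone synthesis, at 0.29 and the electron carrier *Cyb5r3* at 0.26. Of the sterol sensing partners, 9 of 15 were above 0 (median 0.03), and *Sec24d*, a coat protein of the vesicles that carry cargo such as Scap out of the endoplasmic reticulum, had a p under 0.05. It stood at 6.10 and 5.05 FPKM in WT livers and at 8.19 and 11.6 FPKM in Brg1 LKO livers, which did not overlap (log2 fold change 0.80, limma adjusted p = 1.00). Of the efflux and LXR genes, 13 of 20 were above 0 (median 0.03), and of the bile acid genes 7 of 14 (median −0.04), with 0 past the threshold in both lists. Without overlap between genotypes were the sterol carriers *Osbp* (log2 fold change 0.56), *Gramd1a* (−0.41) and *Scp2* (0.24), and, among the sensing partners, the ubiquitin ligases *Rnf145* (0.39) and *Rnf139* (−0.30). *Akr1d1*, a reductase of bile acid synthesis, stood at 4.99 and 7.08 FPKM in WT livers and at 10.9 and 8.37 FPKM in Brg1 LKO livers (log2 fold change 0.68), which did not overlap.

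Fatty acid synthesis, which SREBP1c drives, had the highest median of these lists, 0.51. The log2 fold change was above 0 for 11 of 13 genes, against 46.1% of all genes. *Srebf1*, the gene of SREBP1, stood at 13.2 and 17.8 FPKM in WT livers and at 16.3 and 14.3 FPKM in Brg1 LKO livers, which overlapped. *Fasn*, fatty acid synthase, stood at 9.06 and 10.4 FPKM in WT livers and at 18.1 and 16.6 FPKM in Brg1 LKO livers, apart in all 4 livers (log2 fold change 0.83, unadjusted p under 0.05, limma adjusted p = 1.00), but short of 2-fold. *Elovl6*, a fatty acid elongase, stood at 1.25 and 1.56 FPKM in WT livers and at 2.20 and 2.48 FPKM in Brg1 LKO livers (log2 fold change 0.71). *Acly*, which supplies cytosolic acetyl-CoA, stood at 12.6 and 14.6 FPKM in WT livers and at 17.0 and 23.4 FPKM in Brg1 LKO livers. *Scd1*, the main liver desaturase, was past the threshold at a log2 fold change of 1.31 (limma adjusted p = 1.00), yet its values of 62.3 and 37.7 FPKM in WT livers and 249 and 57.7 FPKM in Brg1 LKO livers overlapped. Without Brg1 LKO replicate 1 the log2 fold change of *Scd1* was 0.25 and without WT replicate 2 it was 0.94, and it passed in neither case.

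A level over 2-fold higher in Brg1 LKO replicate 1 than in replicate 2, as for *Insig2*, was found in 2.35% of all genes tested. In the lists above, *Abca1*, *Amacr* and *Ces1d* had this difference too, and *Ces1d* was highest in WT replicate 2. Described here are *Scd1*, *Thrsp* and *Por*, of which *Thrsp* and *Por* were chosen after their values were seen. The WT livers and the rank of replicate 2 differed among the genes described. *Scd1* was 4.32-fold higher in Brg1 LKO replicate 1 than in replicate 2. *Thrsp*, a lipogenic gene responsive to thyroid hormone and carbohydrate, stood at 11.4 and 20.4 FPKM in WT livers and at 89.2 and 10.6 FPKM in Brg1 LKO livers. *Por*, which passes electrons to Cyp51 and other cytochrome P450 enzymes, stood at 53.5 and 69.8 FPKM in WT livers and at 88.2 and 28.4 FPKM in Brg1 LKO livers. In *Scd1*, *Thrsp* and *Por*, replicate 1 was the highest of the 4 livers, while *Hmgcs1*, *Mvd*, *Idi1*, *Lss* and *Insig1* were highest in replicate 2. With 2 Brg1 LKO livers this is a description of a pair of mice.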

How the data were processed

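Liver RNA of 2 WT and 2 Brg1 LKO mice, grouped by the genotype in the labels, was sequenced by the study. The methods name Illumina paired-end reads and the labels a BGIseq protocol. The submitters' processing notes list HISAT2 2.0.4, StringTie 2.1.4 and GRCm38. The authors deposited 1 table of FPKM with 22103 entries. FPKM divides by length and library total, so abundant genes shift the rest, and no scaling between libraries is stated. The paper names Cufflinks for this step, and which tool made the table was not settled. Each entry names 1 transcript, and whether its FPKM is of that transcript or of the gene is not stated. Lengths were found for 98.3% of them in GENCODE M21. Symbols turned into dates (27) were restored, and 50 later entries that repeat a symbol were kept apart. Depth was estimated from the FPKM worth 1 read, and 88.4% to 89.5% of low values then lay within 0.1 of a whole read. Whether a read is a pair is not known.

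The 12346 genes whose mean reached 0.1 FPKM entered a limma fit (version 3.58.1, R 4.3.3, eBayes with trend, all 4 livers) on log2(FPKM + 0.1), which understates changes of low genes. Called genes had an unadjusted p under 0.05 and a change over 2-fold. Benjamini-Hochberg values cover all genes tested. Scripts were tested on simulated data. Python 3.11.15 did the rest. The members, lists, motifs and tests were chosen with earlier results of these data known. Named outside the list were genes past the threshold or with p under 0.05 and up to 3 of the largest changes without overlap per list. Reads shared with other genes were estimated from 75-base stretches of GENCODE transcripts. Alternatives were other pseudocounts, filters, scalings, a replicate block and leaving out each liver. Protein sequences and the promoters of 5 members were not used here.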

Additional observations from a re-analysis of the deposited data

How the results depend on the processing

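With 2 livers per genotype, 1 liver decides most values. Genes past the threshold numbered 121, 18 with a pseudocount of 1, 80 without the filter, 68 when the mean had to reach 1 FPKM and 73 to 557 as each liver was left out. Members past the threshold were 0 under every alternative that kept all livers and 0 to 4 as each liver was left out. Members with a log2 fold change above 0 numbered 8 to 26 and the median of all members was −0.13 to 0.36 as each liver was left out. Over all genes, the share above 0 was then 31.2% to 68.4% and the median −0.17 to 0.12. With all livers kept, the 221 values of single members kept their direction and their side of the threshold. As each liver was left out, the log2 fold change crossed 0 for 23 of 28 members: *Hmgcs1* −0.62 to 1.29, *Mvk* −0.58 to 0.46, *Pmvk* −0.45 to 0.12, *Mvd* −0.86 to 1.17, *Idi1* −0.91 to 0.95, *Fdps* −0.0028 to 0.80, *Ggps1* −0.083 to 0.22, *Fdft1* −0.39 to 0.60, *Lss* −0.21 to 1.25, *Cyp51* −0.77 to 0.39, *Tm7sf2* −0.48 to 0.36, *Lbr* −0.027 to 0.21, *Msmo1* −0.31 to 0.63, *Nsdhl* −0.081 to 0.46, *Ebp* −0.25 to 0.13, *Sc5d* −0.63 to 0.11, *Srebf2* −0.088 to 0.31, *Scap* −0.27 to 0.31, *Insig1* −0.57 to 1.48, *Insig2* −0.65 to 1.20, *Mbtps1* −0.17 to 0.35, *Stard4* −0.024 to 0.57, *Soat2* −0.33 to 0.11. The medians of the other lists ran from −0.13 to 0.27 (isoprenoid branches), −0.07 to 0.24 (sterol sensing), −0.19 to 0.20 (efflux), 0.13 to 0.78 (fatty acid synthesis) and −0.27 to 0.12 (bile acids), and *Por* −1.10 to 0.53 and *Thrsp* −0.52 to 2.54. *Scd1* missed the threshold without the filter (1.31), after median-ratio rescaling (1.32) and after quantile normalization (1.23). *Smarca4* at a pseudocount of 1 stood at −0.85, short of 2-fold. The causes were not tested. Added after seeing the data, rescaling moved the median difference of the members between WT livers from 0.27 to −0.036, or −0.046 with quantile normalization.

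The deviations of same-numbered livers were nearly uncorrelated over 12346 genes (r = 0.031). That value leaves out a shift shared by a whole library, and so cannot settle whether the livers were paired. The median-ratio factors were 0.90 and 0.91 for replicate 1 of WT and Brg1 LKO, and 1.12 and 1.09 for replicate 2. With 2 pairs the replicate numbers are only shared numbers. A replicate block left 108 genes and 0 members past the threshold, and 1 member, *Hsd17b7*, had an unadjusted p under 0.05. With about 1 read in 1 liver and 0 in the rest, *Idi2* was too low to compare between genotypes.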
